A study of Mus musculus with 15 samples.

Results

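The pyruvate dehydrogenase kinases and phosphatases are the 6 genes Pdk1, Pdk2, Pdk3, Pdk4, Pdp1 and Pdp2, out of 19938 genes measured. They were taken by function, each through the one transcript cluster annotated to it alone, and the set was chosen by the signal of Pdk4, which was known to be high in alpha arrays. The difference between alpha and beta arrays had therefore entered the choice of genes, and for these 6 genes it is described below without a test.

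Pyruvate dehydrogenase is the mitochondrial complex that turns pyruvate into acetyl-CoA and so sends the carbon of glucose into the citric acid cycle. The kinases add phosphate to its alpha subunit and switch the complex off, and the phosphatases remove the phosphate and switch it on again. Oxidation of pyruvate is part of the metabolic signal by which beta cells couple glucose to insulin secretion. Pdk4 is best known as the isoform induced by fasting and fatty acids in muscle, heart and liver.

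RNA from mouse islet cells on a mixed B6 and BALB/C background was hybridised to 15 arrays, 5 per group. The Pdx1-deficient arrays held cells taken 5 days after tamoxifen, titled as deficient in the transcription factor Pdx1 and described in the labels as reprogrammed. The alpha arrays (genotype label RIP-CreER; Pdx1fl/+, RosaYFP) and the beta arrays (genotype label glucagon-Cre; RosaYFP) held YFP-sorted control cells of mice 2 months old. Under these labels each control group carries the driver usually active in the other cell type, so the titles decided the grouping here. The sources used here do not give the exon deleted, the driver of the deletion, any tamoxifen in controls, or whether replicates were separate animals. No age was found for the mice of the Pdx1-deficient arrays, so a difference in age from the controls cannot be told apart from the group. P-values therefore cover the spread among these arrays alone, and that spread may be technical.

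The list means of identity genes ran with the titles, with exceptions, while several single markers did not pass between alpha and beta arrays. The mean log2 signal of 7 of 10 listed alpha-cell markers was 9.05 to 9.41 in Pdx1-deficient, 9.22 to 10.19 in alpha and 8.67 to 9.10 in beta arrays. The mean of 9 of 10 listed beta-cell markers was 8.93 to 10.36, 8.94 to 9.51 and 10.14 to 10.43 in the same groups. Its 10.36 was Pdx1-deficient replicate 1, inside the beta range, where the other 4 Pdx1-deficient arrays read 8.93 to 9.47. In alpha against beta arrays 5 of 9 beta-cell markers passed as lower by limma, and 4 of 7 alpha-cell markers as higher. The insulin gene Ins2 and Slc30a8 did not pass and were slightly higher in alpha arrays, by 0.099 and 0.090. Iapp and Mafa differed by -0.33 and -0.14 and did not pass. The glucagon gene Gcg averaged 12.74 in alpha and 12.35 in beta arrays. Gcg, Irx1 and Ttr differed by 0.39, 0.42 and 0.23 and did not pass. Pdx1 itself read 9.12, 7.83, 7.68, 6.53 and 7.59 in Pdx1-deficient replicates 1 to 5, against 8.85 to 9.33 in beta arrays. The Pdx1 mean differed from that of beta arrays by -1.39, which did not pass (limma adjusted p = 0.0575). It differed from that of alpha arrays by -0.11 (limma adjusted p = 0.994). The array labelled Pdx1-deficient replicate 1 thus lay within the beta range both for its target gene and for the beta-marker mean, and directions below include it unless stated. Alpha replicate 2 had the lowest alpha-marker mean of its group (9.22, where the other 4 read 9.97 to 10.19). Acinar markers averaged 10.04 in alpha replicate 5 and 5.94 to 6.93 in the other 14 arrays. Array medians ran from 5.88 to 6.05.

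Pdk4 was the kinase gene that differed most between the groups of arrays. Its log2 signal was 8.88, 7.25, 7.59, 7.00 and 7.60 in Pdx1-deficient replicates 1 to 5. In alpha replicates 1 to 5 it was 9.69, 7.53, 10.31, 10.10 and 9.95, and in beta replicates 1 to 5 it was 7.02, 5.08, 5.27, 5.63 and 6.59. Every alpha array read above every beta array. Of the Pdx1-deficient arrays, 4 read above all beta arrays and replicate 4 fell just under beta replicate 1. Alpha replicate 2 lay inside the Pdx1-deficient range, so those groups overlapped.

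**Figure D1:**
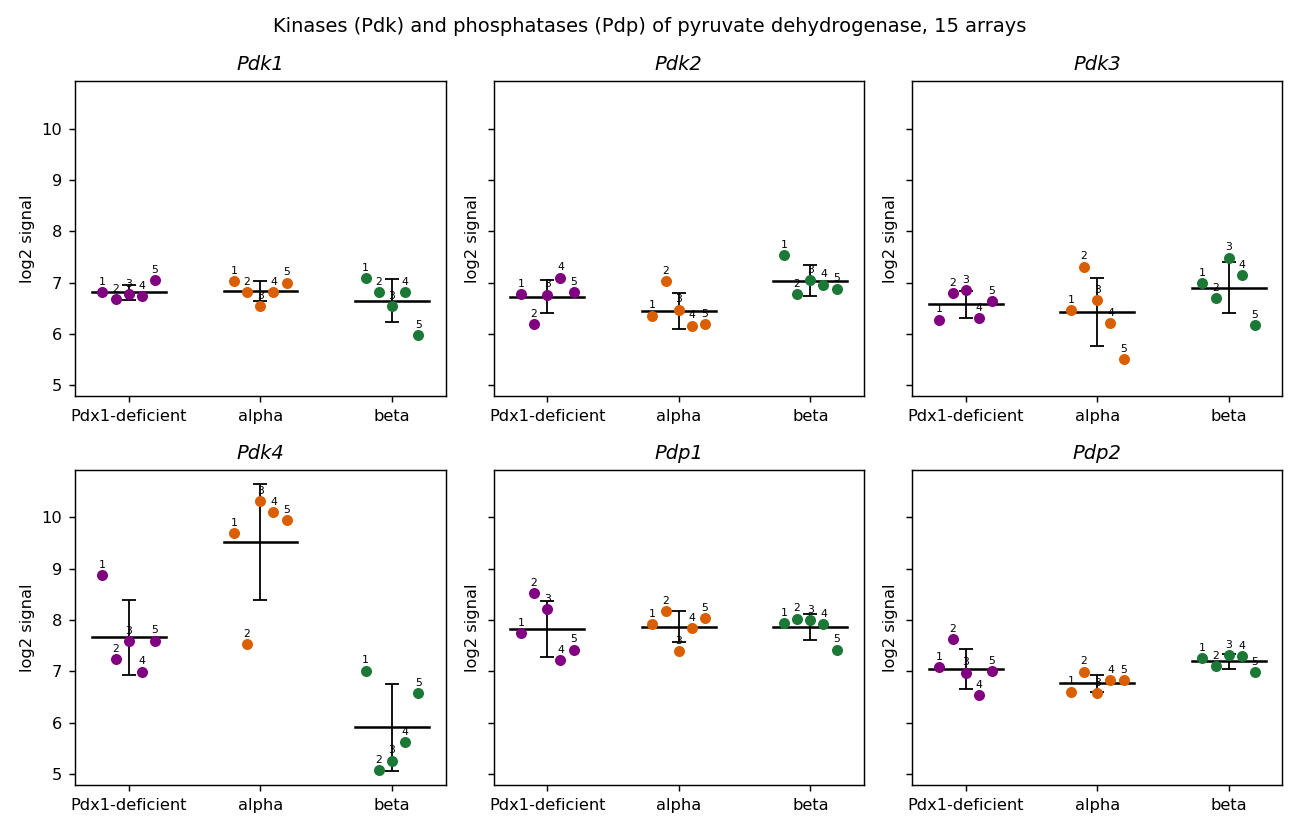
Log2 signal of the 6 genes in Pdx1-deficient, alpha and beta arrays; points are single arrays numbered by replicate, and lines with bars are the mean and SD of 5 arrays. Pdk4 spreads from 5.08 to 10.31 while every reading of the other 5 genes lies between 5.51 and 8.53.

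Pdk4 averaged 7.66 ± 0.72 in Pdx1-deficient and 5.92 ± 0.85 in beta arrays (SD, n = 5 each), a log2 difference of 1.75 (SE 0.52, 95% interval 0.63 to 2.86), or 3.35-fold. With adjustment over all genes it missed the threshold of 0.05 (limma adjusted p = 0.097, and 0.0425 to 0.191 over the alternatives). The difference was 1.44 without the array labelled Pdx1-deficient replicate 1, whose Pdk4 signal was the highest of its group although its Pdx1 was at the beta level. The adjusted p was 0.044 without alpha replicate 2, an array of neither group that enters the shared estimate of spread, and 0.0425 without both of these arrays. The beta arrays are the same ones in which Pdk4 was known to be low when it was chosen. The interval and the adjusted p-values of Pdk4 here are therefore not independent of that choice, and no conclusion is drawn from them.

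Between the alpha and beta arrays the Pdk4 means were 9.52 ± 1.13 and 5.92 ± 0.85 (SD, n = 5 each), a log2 difference of 3.60. With alpha replicate 2 left out the difference was 4.10. Pdk4 read below the median of its own array in 3 of 5 beta arrays and in 0 of the Pdx1-deficient and alpha arrays, and below the 25th percentile in 0 of 15; whether the beta readings were above background was not tested. Between Pdx1-deficient and alpha arrays the means of 7.66 ± 0.72 and 9.52 ± 1.13 (SD, n = 5 each) differed by -1.85, given without a test because the alpha arrays were those that chose the gene. Leaving out alpha replicate 2 moved that difference to -2.35, and leaving out that array and Pdx1-deficient replicate 1 moved it to -2.65. In the order alpha, Pdx1-deficient, beta, both pairs of neighbouring groups overlapped: 3 Pdx1-deficient arrays read above alpha replicate 2, and 1 read below beta replicate 1. In RNA from many cells, fewer cells of a type and less RNA per cell cannot be told apart.

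**Figure D2:**
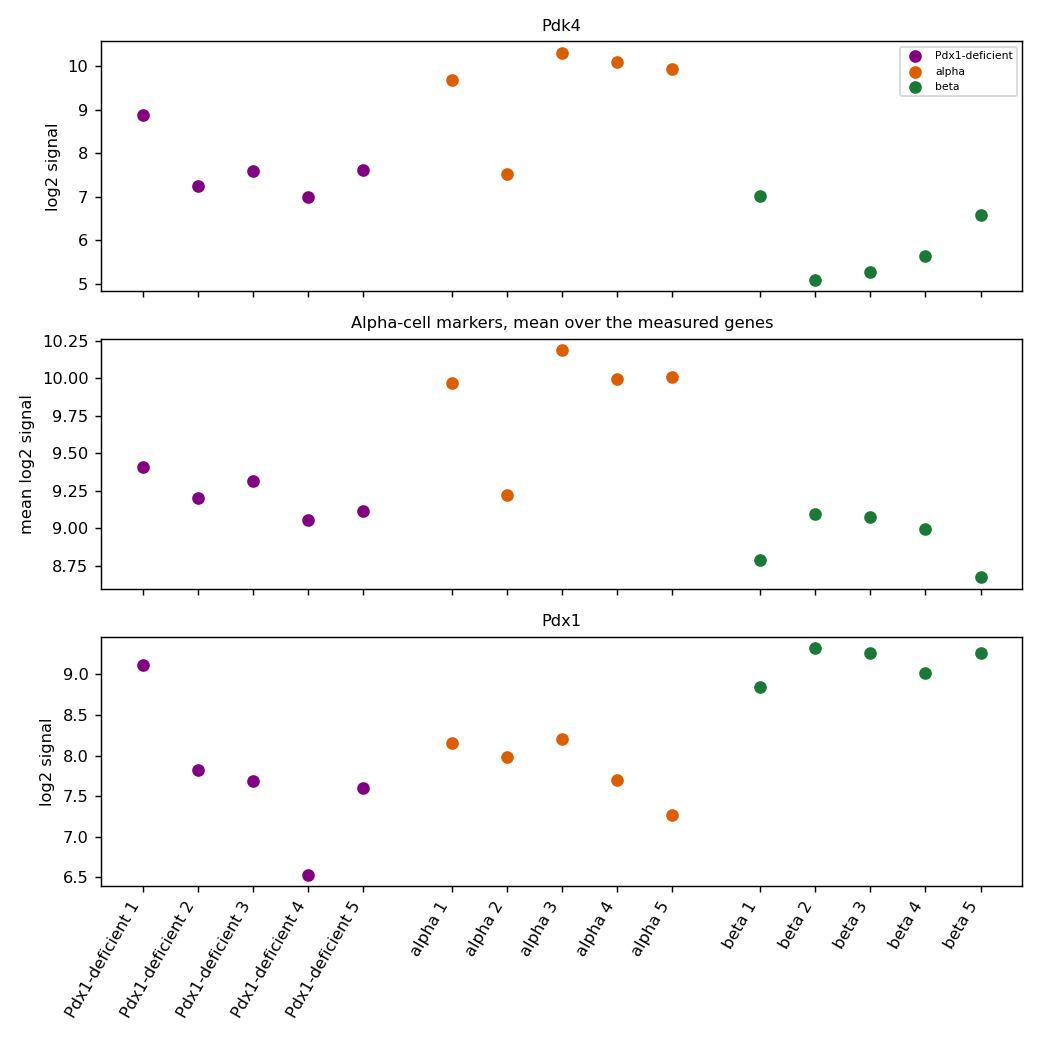
Log2 signal of Pdk4, mean log2 signal of 7 alpha-cell markers, and log2 signal of Pdx1 in each of the 15 arrays, grouped as Pdx1-deficient, alpha and beta. Alpha replicate 2 is low for both Pdk4 (7.53) and the markers (9.22), and Pdx1-deficient replicate 1 pairs the highest Pdk4 of its group (8.88) with a Pdx1 of 9.12.

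Pdk4 and the alpha-cell markers moved together between groups but not within the beta group. The 2 beta arrays with the highest Pdk4, replicates 1 and 5 (7.02 and 6.59), had the lowest alpha-marker means (8.78 and 8.67, where the other 3 read 8.99 to 9.10). In Pdx1-deficient arrays the marker mean was highest in replicate 1 (9.41) and lowest in replicate 4 (9.05), as was Pdk4. The part of the alpha-cell markers in the Pdk4 differences was not tested. Stromal markers (6 of 6 measured) averaged 6.02 to 6.29, 5.76 to 6.73 and 5.69 to 6.02 in Pdx1-deficient, alpha and beta arrays; alpha replicate 2 was the lowest alpha array here too, and the part of these markers was not tested either.

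The promoters of Pdk4 and Pdk2 are shown because these kinases lay in opposite directions in alpha against beta arrays. RefSeq promoters (GRCm38.p6, 250 bases before to 50 after the start) were matched for 5 of the 6 genes, all but Pdp1. Both strands were searched for the CCAAT box (CCAAT), the nuclear receptor core motif (AGGTCA), the FOXO motif (GTAAACA), the homeodomain core (TAAT), which Pdx1-type homeodomain proteins bind, and the E-box (CACGTG). Matches are in capitals and none overlap in the sequences below, which are the Pdk4 promoter at chr6:5496229-5496528, minus strand, and the upstream of 2 Pdk2 promoters at chr11:95041322-95041621, minus strand.
Pdk4: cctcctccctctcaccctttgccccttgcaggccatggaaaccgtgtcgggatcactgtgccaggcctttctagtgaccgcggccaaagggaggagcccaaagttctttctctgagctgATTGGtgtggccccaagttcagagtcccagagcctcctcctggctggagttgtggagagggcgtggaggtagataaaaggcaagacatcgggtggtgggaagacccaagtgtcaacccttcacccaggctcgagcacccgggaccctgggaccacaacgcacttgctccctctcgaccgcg
Pdk2: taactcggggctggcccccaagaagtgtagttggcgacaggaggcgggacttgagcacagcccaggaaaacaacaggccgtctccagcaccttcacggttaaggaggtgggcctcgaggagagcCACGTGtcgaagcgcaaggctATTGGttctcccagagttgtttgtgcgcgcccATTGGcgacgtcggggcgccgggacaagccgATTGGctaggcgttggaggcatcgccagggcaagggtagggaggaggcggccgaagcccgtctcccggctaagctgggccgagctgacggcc
The Pdk4 promoter held 1 CCAAT box, on its opposite strand, and this Pdk2 promoter held 3 CCAAT boxes, all on its opposite strand, and 1 E-box. Of 32851 promoters of this length, 37.4% hold a CCAAT box, 7.15% an E-box, 16.3% the receptor motif, 3.65% the FOXO motif and 58.0% the homeodomain core. No receptor motif, FOXO motif or homeodomain core was found in either sequence, which says only that these letters are not in this window.

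Pdk2 encodes the most widely expressed kinase isoform. It read 6.78, 6.20, 6.77, 7.10 and 6.82 in Pdx1-deficient replicates 1 to 5. Alpha replicates 1 to 5 read 6.36, 7.04, 6.48, 6.17 and 6.20, and beta replicates 1 to 5 read 7.54, 6.78, 7.05, 6.96 and 6.89. Alpha arrays other than replicate 2 lay below all beta arrays, and Pdx1-deficient arrays overlapped both groups. Pdx1-deficient and beta means were 6.73 ± 0.33 and 7.04 ± 0.29 (SD, n = 5 each), a difference of -0.31 (SE 0.19, 95% interval -0.72 to 0.10) that did not pass (limma adjusted p = 0.337). The alpha mean of 6.45 ± 0.35 differed from the beta mean by -0.60, or by -0.74 without alpha replicate 2.

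Within single arrays, Pdk4 was set against Pdk2, a difference in which any array-wide scaling cancels. The log2 signal of Pdk4 minus that of Pdk2 was 2.10, 1.05, 0.82, -0.10 and 0.79 in Pdx1-deficient replicates 1 to 5. It was 3.33, 0.49, 3.83, 3.94 and 3.75 in alpha replicates 1 to 5, and -0.52, -1.69, -1.78, -1.34 and -0.30 in beta replicates 1 to 5. All Pdx1-deficient and all alpha arrays lay above all beta arrays on this scale, and alpha replicate 2 lay inside the Pdx1-deficient range. The pair was chosen after its values were seen, the size of each value depends on the probes, and no test is given.

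Pdk3, the kinase gene on the X chromosome, and Pdk1, a kinase gene known to be induced in hypoxia, showed no difference beyond their spread. Pdk3 ranged over 6.28 to 6.85 in Pdx1-deficient, 5.51 to 7.31 in alpha and 6.18 to 7.49 in beta arrays. Its Pdx1-deficient mean lay -0.33 from the beta mean (95% interval -0.94 to 0.29, limma adjusted p = 0.49), and its alpha mean lay -0.47 from it. Pdk1 ranged over 6.69 to 7.05, 6.55 to 7.03 and 5.98 to 7.09 in the same 3 groups, with a Pdx1-deficient minus beta difference of 0.17 (95% interval -0.19 to 0.52, limma adjusted p = 0.55). The Pdk1 difference rested on beta replicate 5, the lowest of the beta arrays, and was -0.0019 without it. Pdk3 had its widest spread in alpha arrays (SD 0.66), with replicate 2 highest and replicate 5 lowest. Its alpha minus beta difference was -0.69 without alpha replicate 2 and -0.24 without alpha replicate 5.

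Of the phosphatase genes, Pdp1 had nearly level group means and Pdp2 was lower in most alpha than beta arrays. Pdp1, whose product is activated by calcium, averaged 7.82 ± 0.54 in Pdx1-deficient, 7.87 ± 0.30 in alpha and 7.86 ± 0.25 in beta arrays (SD, n = 5 each). Its Pdx1-deficient minus beta difference was -0.040 (95% interval -0.52 to 0.44, limma adjusted p = 0.923), and its sign turned to 0.055 when the arrays were quantile normalized again. Pdx1-deficient replicates 2 and 3 (8.53 and 8.21) lay above all beta arrays, replicate 4 (7.22) lay below them, and replicate 5 was level with the lowest of them (7.42 each).

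Pdp2 encodes the other catalytic phosphatase. It read 7.08, 7.63, 6.98, 6.54 and 7.01 in Pdx1-deficient replicates 1 to 5. Alpha replicates 1 to 5 read 6.61, 7.00, 6.58, 6.83 and 6.82, and beta replicates 1 to 5 read 7.27, 7.10, 7.32, 7.29 and 6.99. Alpha arrays lay below beta arrays except where replicate 2 touched beta replicate 5, with means of 6.77 ± 0.17 and 7.19 ± 0.14 (SD, n = 5 each) and a difference of -0.43. The Pdx1-deficient mean of 7.05 ± 0.39 differed from the beta mean by -0.15 (95% interval -0.48 to 0.18, limma adjusted p = 0.568).

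**Figure D3:**
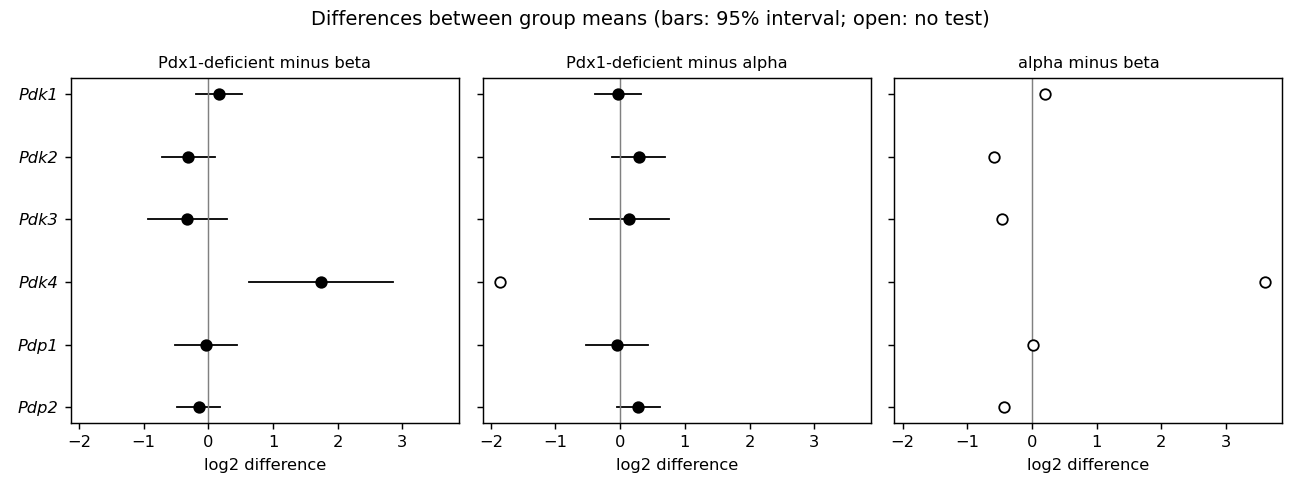
Log2 differences between group means for the 6 genes in the 3 comparisons; filled points carry a 95% interval from the limma fit, and open points are descriptions without a test. Pdk4 stands at 1.75, -1.85 and 3.60, and the other 5 genes stay between -0.60 and 0.28.

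Counted over the members, 0 of 6 genes passed in Pdx1-deficient against beta arrays, where 1.09% of all genes passed. Pdk4 is in that count although its beta readings had entered the choice of genes, and is left out of the next. Of the other 5 genes 0 had an unadjusted limma p under 0.05, where 21.8% of all genes did. The Pdx1-deficient and beta arrays did not overlap for 0 of 6 genes, where 5.96% of all genes did not overlap. In Pdx1-deficient against alpha arrays 0 of the 5 genes tested passed by limma, as did 0% of all genes, and 0 of 5 had an unadjusted p under 0.05, where 6% of all genes did. Those arrays did not overlap for 0 of the 6 genes, where 0.637% of all genes did not overlap. The differences there were -0.030 for Pdk1 (95% interval -0.39 to 0.33), 0.28 for Pdk2 (-0.12 to 0.69), 0.14 for Pdk3 (-0.47 to 0.76), -0.048 for Pdp1 (-0.53 to 0.43) and 0.28 for Pdp2 (-0.054 to 0.61). The alpha and beta arrays did not overlap for 1 of the 6 genes, Pdk4, where 6.34% of all genes did not overlap, a contrast that the choice of genes had used. Without alpha replicate 2 the arrays did not overlap for Pdk2, Pdk4 and Pdp2, 3 of 6, where 13.3% of all genes did not overlap. That array was singled out after its values for these genes were seen, so the count of 3 is a description. The Pdx1-deficient comparisons share their control arrays with that of alpha against beta cells.

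The 7 genes listed for the complex, among them Pdpr of its phosphatase, did not pass in either comparison with beta arrays. Of these, 0 passed by limma in Pdx1-deficient against beta arrays, where 1.09% of all genes did. An unadjusted p under 0.05 was found for 1 of the 7, where 21.8% of all genes had one. The median difference of the 7 was -0.31, where that of all genes was 0.061. Pdha1, the subunit that the kinases phosphorylate, averaged 8.06 ± 0.30 in Pdx1-deficient and 8.41 ± 0.29 in beta arrays (SD, n = 5 each; limma adjusted p = 0.306). Pdpr, the regulatory subunit of the phosphatase, averaged 5.97 ± 0.25 and 6.31 ± 0.40 in the same groups (limma adjusted p = 0.269). In alpha against beta arrays 0 of 7 passed by limma, where 4.04% of all genes passed (1 at an unadjusted p under 0.05, where 20.7% of all genes did), and the median difference was -0.074, with -0.45 for Dld, the lipoamide dehydrogenase subunit (limma adjusted p = 0.166), and -0.23 for Pdhb (limma adjusted p = 0.365). Of 5 genes that make or attach the lipoate cofactor 0 passed by limma in each comparison with beta arrays. Of all genes 1.09% passed for Pdx1-deficient and 4.04% for alpha arrays. An unadjusted p under 0.05 was found for 1 of the 5 in Pdx1-deficient and 2 in alpha arrays, where 21.8% and 20.7% of all genes had one. Lias, the lipoate synthase, differed by -0.35 in Pdx1-deficient arrays (limma adjusted p = 0.138), and Mcat, a transacylase of mitochondrial fatty acid synthesis, by -0.29 in alpha arrays (limma adjusted p = 0.0642).

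Genes of pyruvate entry and of its other fates included 2 that fell in alpha against beta arrays. Pcx, the carboxylase that feeds pyruvate into the citric acid cycle as oxaloacetate, averaged 6.17 ± 0.21 in alpha and 7.08 ± 0.37 in beta arrays (SD, n = 5 each) and fell by 0.91 on the log2 scale (limma adjusted p = 0.0169). Me2, a mitochondrial malic enzyme, fell by 1.00 (limma adjusted p = 0.0285). No other of the 13 measured genes passed in either direction, while 3.15% of all genes passed as lower and 0.893% as higher. The list's median difference was -0.34, where that of all genes was 0.041. With array medians subtracted the split over all genes was 1059 lower and 123 higher, against 628 lower and 178 higher as fitted, so 10.4% and 22.1% of the calls were higher. In Pdx1-deficient against beta arrays 0 of 13 passed by limma, where 1.09% of all genes did. An unadjusted p under 0.05 was found for 6 of the 13, where 21.8% of all genes had one. The differences were -0.68 for Me2 (limma adjusted p = 0.129) and -0.68 for the pyruvate carrier gene Mpc1 (limma adjusted p = 0.0873).

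The kinase and phosphatase of the branched-chain ketoacid dehydrogenase are the nearest relatives of the members in function. The kinase Bckdk fell by 1.34 in alpha arrays, with 6.71 ± 0.57 in alpha and 8.05 ± 0.57 in beta arrays (SD, n = 5 each, limma adjusted p = 0.0286). It was the only one of the 5 genes of that system to pass by limma in that comparison, where 4.04% of all genes passed. In Pdx1-deficient arrays Bckdk averaged 6.80 ± 0.47 against the same beta mean, a difference of -1.25 (SE 0.31) that did not pass (limma adjusted p = 0.0617), although all 5 Pdx1-deficient arrays (6.02 to 7.16) lay below all 5 beta arrays (7.28 to 8.88), a lack of overlap found for 5.96% of all genes. Bckdk did pass there with array medians subtracted (limma adjusted p = 0.0391) and with dim genes removed (limma adjusted p = 0.0373). It also passed without beta replicate 2 (limma adjusted p = 0.0423) and without Pdx1-deficient replicate 1 (limma adjusted p = 0.0481). Bckdhb, a subunit of that complex, differed by -1.02 in Pdx1-deficient arrays (limma adjusted p = 0.164). In that comparison 0 of 5 passed by limma, where 1.09% of all genes did, and 2 had an unadjusted p under 0.05, where 21.8% of all genes did.

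Of the factors known to act on Pdk genes, and of genes commonly induced together with Pdk4 or Pdk1 in other tissues, 0 passed as higher in any comparison. In Pdx1-deficient against beta arrays 32 of all 19938 genes passed as higher. Median differences from beta arrays were -0.040 in Pdx1-deficient and -0.045 in alpha arrays for the 12 regulators. For the 12 hypoxia-induced genes they were -0.17 and -0.20, where those of all genes were 0.061 and 0.041. Activity of the factors was not measured. In alpha against beta arrays 3.15% of all genes passed as lower and 0.893% as higher. Of 12 regulators 1 fell in alpha arrays, the nuclear receptor gene Pparg, which fell by 0.89 (6.34 ± 0.36 in alpha and 7.22 ± 0.31 in beta arrays, SD, n = 5 each, limma adjusted p = 0.0155). Of 15 measured genes of fatty acid oxidation and PPAR response 1 fell, the fatty acid binding protein gene Fabp3, which fell by 1.50 (6.61 ± 0.75 and 8.11 ± 0.34 in the same groups, limma adjusted p = 0.0196). The list's median difference was -0.30 in alpha and -0.42 in Pdx1-deficient arrays against beta arrays. Of 12 hypoxia-induced genes 2 fell in alpha arrays, the glycolytic kinase gene Pgk1, which fell by 1.05 (limma adjusted p = 0.0295), and the glucose transporter gene Slc2a1, which fell by 0.72 (limma adjusted p = 0.0436). In Pdx1-deficient against beta arrays 0 genes of these 3 lists passed by limma, where 1.09% of all genes did. An unadjusted p under 0.05 was found for 2 of the 12 regulators, 9 of the 15 fatty acid oxidation and PPAR genes and 5 of the 12 hypoxia-induced genes, where 21.8% of all genes had one. The differences were -0.56 for Pparg, -0.84 for Ehhadh, -0.82 for Fabp3 and -0.95 for Pgk1, with limma adjusted p-values of 0.114, 0.166, 0.166 and 0.0676. Ehhadh and Pgk1 passed in some of the alternatives, as given in the section on processing.

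**Figure D4:**
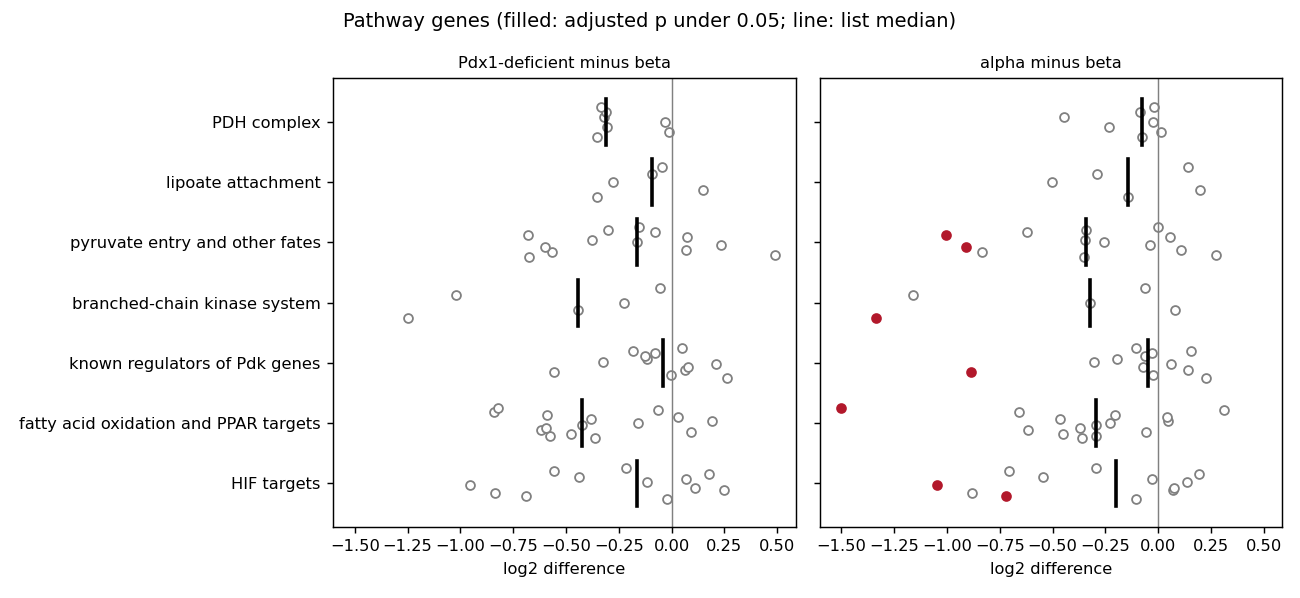
Log2 differences of each measured gene of the 7 pathway lists in Pdx1-deficient minus beta and in alpha minus beta arrays; filled points passed an adjusted p of 0.05 and black lines are list medians. The 7 filled points, all in alpha minus beta, lie between -1.50 and -0.72.

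Over the 7 lists, 0 of 69 measured genes passed as higher and 7 as lower in alpha against beta arrays. Of all genes 0.893% passed as higher and 3.15% as lower. In Pdx1-deficient against beta arrays 0 passed by limma, where 1.09% of all genes did, and 26 had an unadjusted p under 0.05, where 21.8% of all genes did. With array medians subtracted 6 of the 69 passed, while the count over all genes was 615 in place of 217. In Pdx1-deficient against alpha arrays 0 of 69 passed by limma, as did 0% of all genes. An unadjusted p under 0.05 was found for 3 of the 69, where 6% of all genes had one. List medians lay between -0.073 and 0.091, with 0.55 for the malic enzyme gene Me3 (limma adjusted p = 0.511) and 0.68 for Fabp3 (limma adjusted p = 0.825). Of the 7 falls, Pcx and Pparg passed in all 23 alternatives and Fabp3 in 22, being lost without alpha replicate 3. Me2 and Bckdk passed in 17 each, Pgk1 in 16 and Slc2a1 in 11. All 4 were lost without beta replicate 4, beta replicate 5, alpha replicate 1 or alpha replicate 3. Single calls were also lost without beta replicate 1 (Bckdk, Pgk1, Slc2a1), beta replicate 3 (Me2), alpha replicate 4 (Bckdk, Pgk1), alpha replicate 5 (Me2, Pgk1, Slc2a1) and Pdx1-deficient replicate 2 or 3 (Slc2a1).

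Genes were ranked by likeness to Pdk4, leaving out the members and symbols of the form Gm plus a number or ending in Rik. In that ranking the genes whose signal over the 15 arrays ran most like that of Pdk4 were Klf4, Mctp2, Tfpi, Lrp1 and Mamld1. Their Pearson r was 0.917, 0.913, 0.911, 0.909 and 0.908. Klf4 is a zinc-finger transcription factor gene and Tfpi encodes an inhibitor of tissue factor. Over deviations from group means the r was 0.782, 0.801, 0.835, 0.684 and 0.682 in the same order. The 15 points share the group differences, and alpha replicate 2 was the lowest alpha array for all 5 genes, so these values are descriptions. Klf4 averaged 6.86 ± 0.18 in Pdx1-deficient, 7.79 ± 0.77 in alpha and 6.41 ± 0.23 in beta arrays (SD, n = 5 each). Mctp2 averaged 4.74 ± 0.74, 6.95 ± 1.29 and 4.13 ± 0.20, and Tfpi 5.54 ± 0.47, 6.78 ± 0.64 and 5.29 ± 0.07, in the same groups. All beta readings of Mctp2 (3.89 to 4.36) lay under every array's 25th percentile (4.55 to 4.80). So did its Pdx1-deficient replicates 2, 4 and 5 (4.33, 4.16 and 4.21), and whether such readings were above background was not tested. As for Pdk4, replicate 1 was the highest Pdx1-deficient array for Klf4 (7.08), Mctp2 (5.82) and Tfpi (6.36). It was the lowest for Lrp1 (6.45), and for Mamld1 it read 6.93, where replicate 4 was highest (6.97). None of the 5 passed in Pdx1-deficient against beta arrays (limma adjusted p from 0.18 for Lrp1 to 0.576 for Tfpi).

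**Figure D5:**
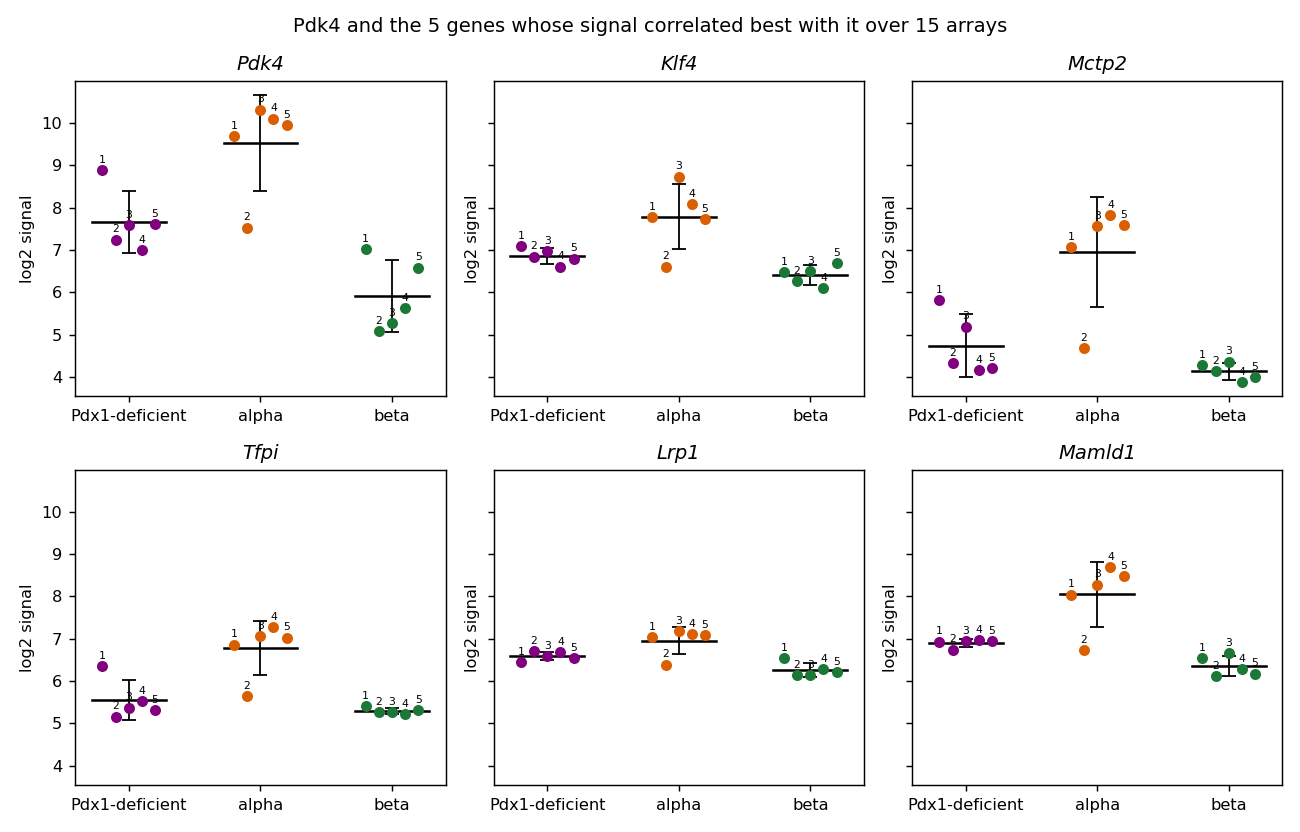
Log2 signal of Pdk4 and of the 5 genes correlating best with it, Gm and Rik symbols and members left out, in Pdx1-deficient, alpha and beta arrays. Points are arrays numbered by replicate, and lines with bars are the mean and SD of 5 arrays. Alpha replicate 2 is the lowest alpha point in all 6 panels.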

How the data were processed

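Values are log2 signals per transcript cluster of Affymetrix Mouse Gene 1.0 ST arrays, 1 column per array, as the authors deposited them; the log2 scale was read from their range (2.11 to 13.45). Per the labels' protocols 500 ng of total RNA were labelled, and per the submitters' processing notes Affymetrix Expression Console was used. Summarization, background correction, log base and genome build are stated in none of the sources used here, so any fold assumes a base of 2. Of 35556 clusters 21789 had 1 gene symbol; for each of 19938 genes the one with the highest mean over 15 arrays stood for the gene, and each member had 1 such cluster. Listed genes without one were not analysed here.

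Group means over all 15 arrays were fitted with limma 3.58.1 (lmFit, eBayes) in R 4.3.3, with p-values adjusted over all genes (Benjamini-Hochberg, threshold 0.05), after a test on simulated data. The number of arrays, 5 per group, limits the precision. Alternatives were 2 rescalings, a filter on dim genes, trend and robust moderation, fits of 2 groups, a replicate block, cluster means and leave-outs. Members, lists and tests were chosen with earlier results of these data known. A planned permutation test of Pdk4 alone is not given, since its beta readings had entered the choice of genes. The limma values of Pdk4 against beta arrays carry the same limit. Named genes were all members, up to 4 passing genes per list or the 2 with the largest difference, and the 5 most like Pdk4. Members and symbols of the Gm and Rik kind were left out of the ranking by likeness to Pdk4. Single identity markers were named after their values were seen.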

Additional observations from a re-analysis of the deposited data

Results flagged for a closer look

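Of 18 sets of 5 arrays (6 genes in 3 groups), 2 had an array whose gap to the nearest other array was a large share of the whole range by Dixon's test, where chance gives about 1 in 20 sets. Pdk4 in alpha replicate 2 read 7.53, below the other 4 alpha arrays, with a gap of 0.777 of the range. Pdp1 in beta replicate 5 read 7.42, below the other 4 beta arrays, with a gap of 0.817 of the range.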

How the results depend on the processing

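The Pdk4 difference between alpha and beta arrays ran from 3.39 to 4.10 over the leave-outs. Between Pdx1-deficient and beta arrays it ran from 1.44 to 2.02 and the number of members that passed from 0 to 1, Pdk4 passing without alpha replicate 2 (1.75) and without both Pdx1-deficient 1 and alpha 2 (1.44, 1 member). In the leave-outs Pdk1 ran from -0.0019 to 0.27 against beta and from -0.11 to 0.017 against alpha arrays, Pdk3 from -0.088 to 0.36 against alpha arrays, and Pdp1 from -0.22 to 0.11 against beta and from -0.22 to 0.10 against alpha arrays. Pdp1 was also of opposite sign against beta arrays when quantile normalized again (0.055) and against alpha arrays without the same 2 arrays (0.047). The cause of these changes was not tested; other tested member values kept their direction and side of the threshold. Pathway genes passing between alpha and beta arrays numbered 2 to 10 over the leave-outs (2 without alpha replicate 3, 10 without alpha replicate 2). Between Pdx1-deficient and beta arrays they numbered 0 to 2, and 6 with array medians subtracted, 2 with dim genes removed, 1 with only the 2 groups and 3 without both arrays. Bckdk and Pgk1 passed there with array medians subtracted, dim genes removed or Pdx1-deficient replicate 1 left out. Bckdk also passed without beta replicate 2, and Pgk1 without alpha replicate 2 or both arrays. The others that passed in some alternatives were Mpc1, Acadvl, Hadha, Slc2a1, Ehhadh and Pcx, all as lower. Over all genes the calls in that comparison numbered 217, with 615, 29, 389, 121, 89 and 8 under subtracted medians, quantiles, the dim filter, trend moderation, 2 groups and the replicate block, 626 without both arrays, and 0 to 548 over the leave-outs. Between alpha and beta arrays they numbered 806, with 1425 without both arrays and 328 to 1430 over the leave-outs, and between Pdx1-deficient and alpha arrays 0, with 177 without both and 0 to 145 over the leave-outs. Same-numbered arrays of different groups deviated together (r over 0.1) in 5 of 15 pairs. The r ran from -0.17 to 0.22 over these pairs, and from 0.0050 to 0.22 between alpha and beta arrays. Differently numbered arrays were not compared, so whether the numbers pair the samples is not known. With the replicate block the Pdk4 difference of 1.75 against beta arrays had a limma adjusted p of 0.0775. No detection calls were used, so the depth of dim signals is unknown.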

Other observations

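The phosphatase genes Pdp1 and Pdp2 ran together within groups more than any other pair of the 6 genes, with a Pearson r of 0.806 over deviations from group means in 15 arrays (0.799 without Pdx1-deficient replicate 1 and alpha replicate 2). Pdx1-deficient replicate 2 was the highest and replicate 4 the lowest of its group for both. The next pair was Pdk2 and Pdk3 at 0.41, which was 0.194 without the same 2 arrays. The arrays share their processing, and no p is given.

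The glucagon gene Gcg, named after its values were seen, stood next after the 5 genes most like Pdk4 in the same ranking, which leaves out Gm and Rik symbols. Its r was 0.907 over the 15 arrays and 0.83 over deviations from group means. Pdx1 had r of -0.46 with Pdk4 over the 15 arrays and 0.27 over deviations from group means.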
